A study of Ovis aries with 16 samples.

Results

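CLEC4E and CLEC6A, a pair of C-type lectin receptors of innate immune cells, were described across hypothalami of late-gestation fetal sheep taken 24 h after the onset of a 30 min episode of normoxia or maternal hypoxia. All probes of the array whose gene name starts with CLEC were taken, which gave 5 probes of 3 genes among 15008 probes and 1029 gene names: 2 for CLEC4E, 2 for CLEC6A and 1 for CLEC7A. CLEC4E and CLEC6A were chosen by their measured difference between the hypoxia and the normoxia group, so that difference and every comparison that reuses those arrays are given below as values without a test. CLEC7A was included by name alone and was tested in every comparison.

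The 16 arrays each held the hypothalamic RNA of 1 Suffolk fetus with chronic catheters. NC (n = 3) received saline intravenously and stayed in normoxia, NK (n = 4) received ketamine and stayed in normoxia, HC (n = 5) received saline before hypoxia, and HK (n = 4) received ketamine before hypoxia. Hypoxia was made by leading nitrogen into the ewe's trachea, and all fetuses recovered in normoxia for 23.5 h. Most fetuses were twins and littermates were not named, so that arrays of littermates could not be set apart. The study assigned whole pregnancies to normoxia or hypoxia, so any littermates shared that condition, while the tests count each fetus as independent. The p-values therefore measure the spread between these arrays.

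C-type lectin receptors are membrane proteins of macrophages, monocytes, neutrophils and dendritic cells that bind sugars and lipids of microbes or of damaged cells. CLEC4E (Mincle) binds mycobacterial glycolipids and a nuclear protein released by dying cells, CLEC6A (Dectin-2) binds mannose-rich fungal polysaccharides, and CLEC7A (Dectin-1) binds beta-glucan. CLEC4E and CLEC6A lack a signalling motif of their own and pair with the Fc receptor gamma chain, encoded by FCER1G, whereas CLEC7A carries its motif in its own tail. All 3 lead through the kinase SYK and the adaptor CARD9 to NF-kB and to transcription of cytokine genes such as TNF, IL6 and IL1B. In the brain these receptors are known mainly from microglia and from leukocytes that enter it.

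The sequences of the 5 probes, each of 60 bases, are shown because the results depend on how far 2 probes of a gene read the same RNA. Each probe is named by the base of its target transcript at which it starts in the array's design, and capitals mark the single base that each CLEC4E probe holds and the other lacks.
CLEC4E probe 251: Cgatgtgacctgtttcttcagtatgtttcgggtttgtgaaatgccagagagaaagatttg
CLEC4E probe 252: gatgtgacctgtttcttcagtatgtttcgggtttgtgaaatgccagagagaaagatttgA
CLEC6A probe 398: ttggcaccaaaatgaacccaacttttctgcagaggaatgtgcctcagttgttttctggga
CLEC6A probe 468: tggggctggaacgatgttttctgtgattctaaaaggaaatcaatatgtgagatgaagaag
CLEC7A probe 743: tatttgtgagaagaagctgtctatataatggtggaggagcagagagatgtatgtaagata
The 2 CLEC4E probes shared 59 bases and were thus almost 1 measurement made at 2 spots. The 2 CLEC6A probes did not overlap and started 70 bases apart on a partial CLEC6A transcript. Between CLEC4E and CLEC6A probes the longest shared run was 6 bases, and with any probe of another gene on the array it was 14 bases at most for all 5 probes. The share of G and C ran from 36.7% for CLEC7A to 45.0% for CLEC6A probe 398.

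All values below are log2 of the processed spot signal minus log2 of the 75th percentile of the same array, so that 0 is a probe brighter than 75% of the array and 1 unit is a 2-fold difference in signal. The scanner software marks a spot as well above background when its signal stands clear of the local background, and 71.7% to 80.6% of probes were so marked on each array. The dimmest probe marked well above background lay between -6.61 and -5.49, depending on the array, and a value under that level bounds the RNA from above only. A probe entered the tests when it was well above background on at least 3 arrays, which 12249 of the 15008 probes were. Of the 5 CLEC probes 4 were tested, and the exception was CLEC4E probe 252, which was well above background on 2 arrays. CLEC4E is therefore given by probe 251, and CLEC6A by probe 398, the brighter of its 2 tested probes, with the other probe beside it. The tested members passed the filter mostly through the groups in which they were high.

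CLEC4E was near the bottom of the scale in normoxia and reached a readable level on 3 of the 5 hypoxia arrays. With probe 251 the NC arrays read -7.94, -8.16 and -8.07, none of them well above background. The HC arrays read -7.13, -2.05, -4.16, -5.71 and -7.59, of which HC2, HC3 and HC4 were well above background. The highest, HC2, had a spot signal of 385.2 intensity units. The NC arrays stood at 4.62 to 5.60 units, which on all 3 were surrogate values and not measured signals. CLEC4E signal in HC thus ran from the level of the dimmest probes to a level well within the expressed genes of the array, and the 5 fetuses of this group differed from each other by more than any other group.

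The NK arrays read -8.06, -6.99, -7.71 and -3.62 with CLEC4E probe 251, and NK4, the last, was the only one of them well above background. The almost identical probe 252 did not show that signal: it read -6.79 on NK4, with 12.1 intensity units against 108.4 units for probe 251. On no other array did the 2 CLEC4E probes differ as much, the difference on NK4 being 3.16 and the median difference over the 16 arrays 0.26. The HK arrays read -7.71, -6.01, -8.17 and -6.86, none of them well above background. CLEC4E was thus well above background on no HK array by either probe, and on no NK array by probe 252.

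CLEC4E group means with probe 251 were -8.06 ± 0.11 (SD, n = 3) in NC, -7.19 ± 0.96 (SD, n = 4) in HK, -6.60 ± 2.03 (SD, n = 4) in NK and -5.33 ± 2.27 (SD, n = 5) in HC. The NC mean and its small SD come from surrogate values, so they do not measure the level or the spread of the RNA. HC stood 2.73 above NC (SE 1.18) and HK stood below HC by a difference of -1.86 (SE 1.08), on the log2 scale and without a test because these arrays chose the gene. Since no NC array was readable, the HC mean was set against the dimmest readable signal of the NC arrays. It stood 1.48-fold above that by probe 251 and 1.53-fold by probe 252. The HC mean takes unreadable values as they stand, those of HC1 and HC5 by probe 251 and also of HC4 by probe 252. Such a fold is called a bound below, but it holds only as far as these values do, since they bound the RNA from above only. Without HC2 the HC mean fell to -6.15 and no bound above 1-fold was left for CLEC4E by either probe. The HC mean was also 1.48-fold above the dimmest readable signal of the HK arrays by probe 251. This bound was lost without HC2, where HK minus HC went from -1.86 to -1.04. In the order NC, HK, NK, HC each pair of neighbours differed by less than the SD of the more variable group of that pair.

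CLEC6A was readable on no array of either normoxia group, on 4 of the 5 HC arrays and, with probe 398, on 2 of the 4 HK arrays. With this probe the NC arrays read -7.52, -7.69 and -7.76 and the NK arrays -6.07, -7.64, -6.67 and -6.66, none of these 7 arrays being well above background. The HC arrays read -6.21, -2.41, -4.50, -4.80 and -6.00, and all but HC1, the first, were well above background. The HK arrays read -6.25, -2.37, -7.50 and -5.37, and HK2 and HK4 were well above background.

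CLEC6A probe 468 gave the same picture on most arrays and added 1 HK array. It read -7.88, -8.01 and -7.88 in NC, -6.91, -8.12, -7.52 and -7.98 in NK, -7.63, -2.63, -4.99, -5.01 and -6.18 in HC, and -6.84, -2.54, -5.23 and -5.56 in HK. The same 4 HC arrays were well above background with this probe, and so were HK2, HK3 and HK4. The 2 probes parted most on HK3, by 2.27, where probe 468 was readable and probe 398 was not, against a median difference of 0.42.

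**Figure D1:**
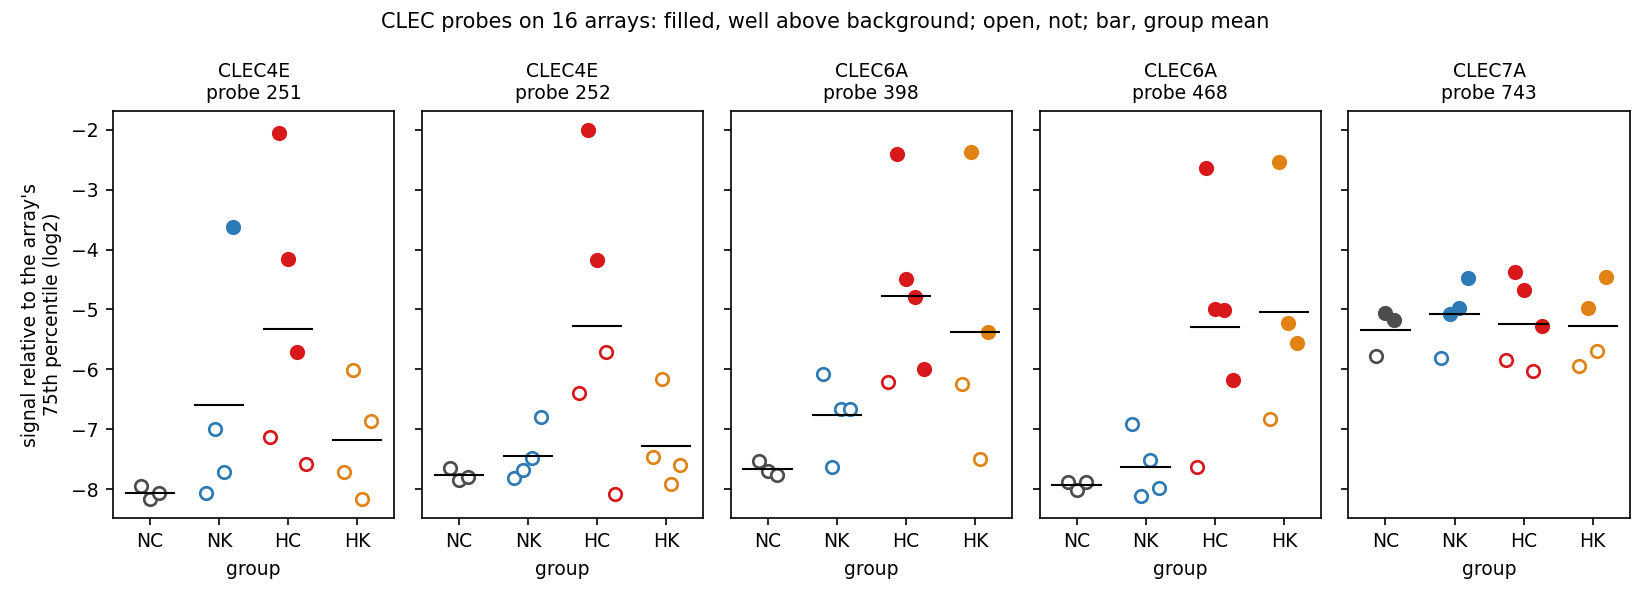
Signal of the 5 CLEC probes, 1 panel per probe, as log2 relative to the 75th percentile of the array; each point is 1 of the 16 arrays, filled where well above background, and bars are group means. CLEC4E was readable on HC2, HC3, HC4 and NK4 with probe 251, CLEC6A on 4 HC arrays and on 2 or 3 HK arrays, and CLEC7A on arrays of all 4 groups.

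CLEC6A group means with probe 398 were -7.66 ± 0.12 (SD, n = 3) in NC, -6.76 ± 0.65 (SD, n = 4) in NK, -5.37 ± 2.18 (SD, n = 4) in HK and -4.78 ± 1.52 (SD, n = 5) in HC. HC stood 2.88 above NC (SE 0.98) on the log2 scale, a bound of 2.16-fold by probe 398 and of 1.52-fold by probe 468. Both bounds take the unreadable value of HC1 as it stands. Without HC2 the first bound was 1.43-fold and the second was lost. HK minus HC was -0.59 (SE 0.90) by probe 398 and 0.25 (SE 0.89) by probe 468, so that the 2 probes differed in sign and both differences were within 1 SE of 0. The sign with probe 398 also turned without HC2, to 0.00, and without HK3, to 0.12. In the order NC, NK, HK, HC, NK and HK as well as HK and HC differed by less than the SD of HK. NK lay 0.90 above NC, more than the SD of either. No array of NC or NK was well above background, and the NC1 and NC3 values were surrogate values.

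HK against NK was the only comparison whose arrays did not enter the difference that chose the pair. It is not fully independent, since the pair was chosen with earlier results of these data known. It asks whether hypoxia and normoxia differed in fetuses that had received ketamine. CLEC6A was higher in HK by 2.59 on the log2 scale with probe 468 (SE 0.94, 95% interval 0.57 to 4.61). No NK array and not HK1 was well above background with this probe, and HK1 at -6.84 lay just above the highest NK array at -6.91, so that the order of these arrays was not measured. With the values as they stand, the exact two-sided permutation test of 4 against 4 arrays gave p = 0.0286, the smallest it can give, and limma gave p = 0.0156 before and an adjusted p = 0.445 after Benjamini-Hochberg adjustment over all probes. With all values not well above background set to a single level the exact permutation p was 0.143 for probe 468 and 0.429 for probe 398. With probe 398 the difference was 1.39 (SE 0.95, 95% interval -0.66 to 3.43, adjusted p = 0.751), the arrays overlapped, and the exact permutation p was 0.314 beside p = 0.168 from limma. As bounds that take the unreadable HK values as they stand, HK was 1.85-fold above NK by probe 468 and 1.47-fold by probe 398. Without HK2 these became 1.04-fold and no bound. Across all probes tested, 8.69% passed an unadjusted p of 0.05 in this comparison, so that 1 call among the 4 CLEC probes tested is not a result about the receptors, and no CLEC probe passed after adjustment.

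For CLEC4E the comparison of HK with NK was one of values near background, since no HK array was readable by either probe and in NK only NK4 was, by probe 251 alone. It gave no measured difference and no measure of likeness. The difference with probe 251 was -0.59 (SE 1.14, 95% interval -3.04 to 1.86, adjusted p = 0.952) and the exact permutation p was 0.771. Without NK4, the array on which the 2 CLEC4E probes disagreed, it was 0.40, and probe 252, which was too dim for the test, gave 0.16 with an exact permutation p of 0.714. In all, 5 probes were compared between HK and NK by the exact test.

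The 2 receptors did not follow each other on every array. HC2 was the highest HC array for both genes. HK2 read -2.37 for CLEC6A probe 398, as high as HC2, whereas its CLEC4E value of -6.01 was not well above background, against -2.05 on HC2. NK4 read -3.62 for CLEC4E probe 251 and -6.66 for CLEC6A probe 398. Over the 16 arrays Pearson's r between CLEC4E probe 251 and CLEC6A probe 398 was 0.68 and Spearman's rho 0.71, and r was 0.73 over the 14 arrays left without NK4 and HC2, the farthest from the CLEC4E median. With each array taken as its deviation from its group mean r was 0.64. These values are a description with no test, since both genes were picked for the same difference and share arrays and a background floor.

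**Figure D2:**
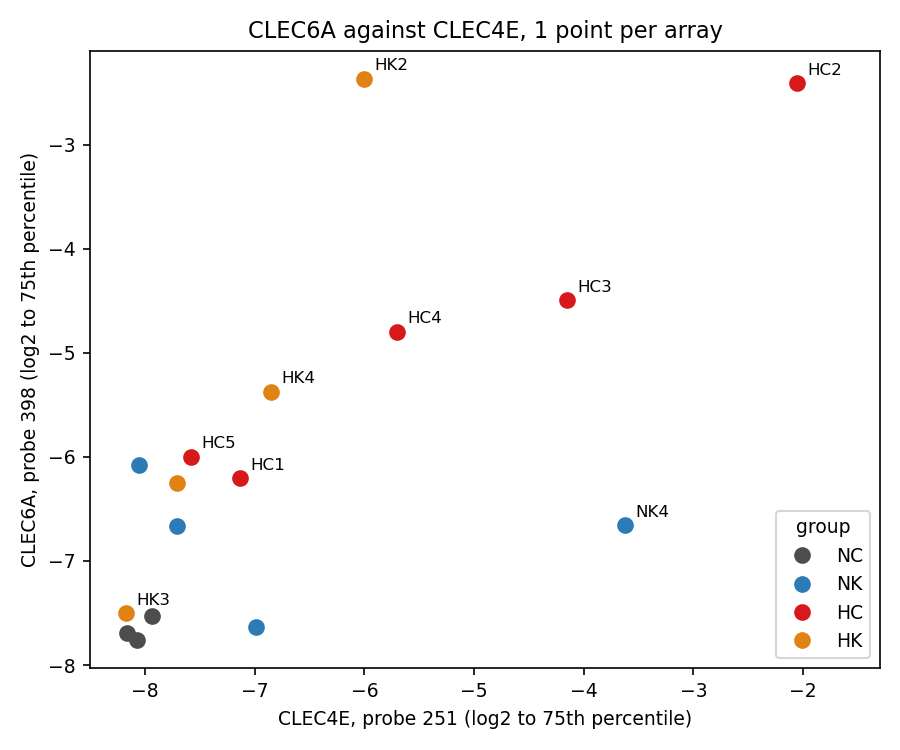
CLEC6A probe 398 (vertical) against CLEC4E probe 251 (horizontal), both as log2 relative to the 75th percentile of the array, with 1 point for each of the 16 arrays coloured by group. HC2 was high for both genes, HK2 for CLEC6A only at -2.37, and NK4 for CLEC4E only at -3.62.

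CLEC7A showed no difference between any groups that passed the test. It read -5.78, -5.05 and -5.18 in NC, -5.82, -5.07, -4.97 and -4.47 in NK, -5.84, -4.37, -4.68, -6.02 and -5.27 in HC, and -5.95, -4.97, -5.70 and -4.45 in HK, and was well above background on 10 of 16 arrays, at least 2 in each group. HC minus NC was 0.10 (SE 0.43, 95% interval -0.82 to 1.02, adjusted p = 0.964). The other differences were 0.26 for NK minus NC, -0.03 for HK minus HC, -0.19 for HK minus NK and -0.29 for the interaction (HK minus HC set against NK minus NC), none past an unadjusted limma p of 0.05. The exact permutation p for HK against NK was 0.714. Over all probes 3.72% passed in the interaction. The 95% intervals of the 5 differences ran from -1.57 at the lowest to 1.22 at the highest, and that of HK minus HC from -0.88 to 0.81.

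Among 61 other genes with a C-type lectin-like domain that were listed, 7 were named on the array and 6 were tested, CLEC7A included. A gene is said below to have risen or fallen when it passed an unadjusted limma p of 0.05, as in the methods of the study. Each adjusted p-value is by Benjamini-Hochberg over all probes tested. SELP (P-selectin), which tethers leukocytes to activated endothelium and platelets, rose in HC over NC by 4.71 on the log2 scale (adjusted p = 0.341), from a mean of -5.73 ± 1.01 (SD, n = 3) to -1.02 ± 2.07 (SD, n = 5). Its level ran from -6.87 to -4.98 in NC, from -3.97 to 1.38 in HC, from -6.71 to -5.40 in NK and from -5.56 to -1.58 in HK, with NC and HC apart. SELP was also higher in HK than in NK by 3.24 (SE 1.06, adjusted p = 0.389), while HK minus HC was -1.80 (SE 1.01) and did not pass, although without HC5 it was -2.54 (SE 0.89, adjusted p = 0.490) and passed. A second SELP probe gave 4.98 for HC minus NC and 3.62 for HK minus NK. SFTPD, a surfactant collectin that binds microbial sugars, rose in NK over NC by 1.74 (SE 0.60, adjusted p = 1.00), with 1 of 3 NC arrays well above background, but not without NC1, where the difference was 1.38. In HK minus NK SFTPD stood at -1.16 and did not pass, but passed without NK4, HK3 or HK4, at -1.33, -1.49 and -1.46. CD93, SELE and SFTPA1 passed in none of the 5 comparisons. The 6 lectins thus gave 1 call in HC against NC, where 8.03% of all probes passed, 1 in NK against NC, where 1.09% passed, and 1 in HK against NK. Their median change in HC minus NC was 0.14, beside -0.02 over all probes.

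Of the signalling genes that link these receptors to NF-kB and its partners, 7 of 36 listed were measured. Of these 4 rose in HC over NC, with none lower, beside 8.03% of all probes past the test in either direction. FCER1G, the adaptor chain that CLEC4E and CLEC6A need at the membrane, rose by 0.45 (SE 0.21, adjusted p = 0.602). It read from -0.88 to -0.59 in NC, from -0.81 to 0.44 in HC, from -0.72 to -0.49 in NK and from -0.75 to -0.47 in HK, so that NC and HC overlapped and HC2 was the highest. The call was lost in 16 of 26 alternative settings, among them leaving out any of the 3 NC arrays or HC2, and a second FCER1G probe gave 0.34 and did not pass.

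IRF1, an interferon-induced transcription factor, rose in HC by 2.81 (SE 0.80, adjusted p = 0.370) and lay between -2.16 and 0.97 in HC against -3.91 to -3.35 in NC. NFKBIA, which encodes the NF-kB inhibitor induced by NF-kB itself, rose by 1.37 (SE 0.36, adjusted p = 0.341), and CEBPB, a transcription factor of myeloid cells, by 1.61 (SE 0.57, adjusted p = 0.482). NFKBIA was the single signalling gene that was lower in HK than in HC by its main probe, by a difference of -0.75 (SE 0.33, adjusted p = 0.716). FOS differed by 0.72 in HC minus NC by its brightest probe, which did not pass, and rose by 1.04 by another of its 4 probes. JUN, the FOS partner, passed nowhere by its brightest probe, while a second JUN probe was lower in HK than in HC by -0.91 and than in NK by -0.93. AKT1 passed in none of the 5 comparisons. The median change of the 7 genes was 0.72 in HC minus NC and -0.49 in HK minus HC, where 6.92% of all probes passed, against 0.03 over all probes in the latter.

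Of 31 listed cytokines and enzymes that these receptors are known to induce in myeloid cells, 13 were on the array and 11 were tested. In HC over NC 5 rose (CXCL10, IL1B, NOS2, PTGS2 and TNF) and none fell, and in HK below HC 4 fell (IL6, NOS2, PTGS2 and TNF) and none rose, beside 8.03% and 6.92% of all probes past the test in either direction. The first count was 3 without NC3, and the second was 2 without HC4 or HK1. CXCL8, the neutrophil chemokine, differed by 3.24 in HC minus NC by its main probe, which did not pass, and rose by 4.63 by a second probe. The HC arrays are shared by these 2 comparisons, so that a high HC value moves both. TNF, the first cytokine of the response, had a level of -5.37 to -4.63 in NC, -4.45 to -2.12 in HC and -5.66 to -3.17 in HK, with differences of 1.71 for HC minus NC (SE 0.62, adjusted p = 0.499) and -1.63 for HK minus HC (SE 0.57, adjusted p = 0.707). PTGS2, the inducible cyclooxygenase, rose by 2.96 in HC (SE 0.55, adjusted p = 0.277) and was lower in HK than in HC by -1.14 (SE 0.50, adjusted p = 0.716), while a second PTGS2 probe gave 0.92 and -1.39, neither past the test. NOS2, the inducible nitric oxide synthase, rose by 0.69 (SE 0.25, adjusted p = 0.490) and was lower in HK than in HC by -0.64 (SE 0.23, adjusted p = 0.707), and its second probe gave 0.15 and -0.29, neither past the test. In HK against NK only PTGS2 passed, higher by 1.32 (SE 0.53, adjusted p = 0.484). The median change of the 11 genes was 1.08 in HC minus NC and -0.76 in HK minus HC. None of the adjusted p-values of the lists was under 0.05, as over all probes in HC against NC.

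**Figure D3:**
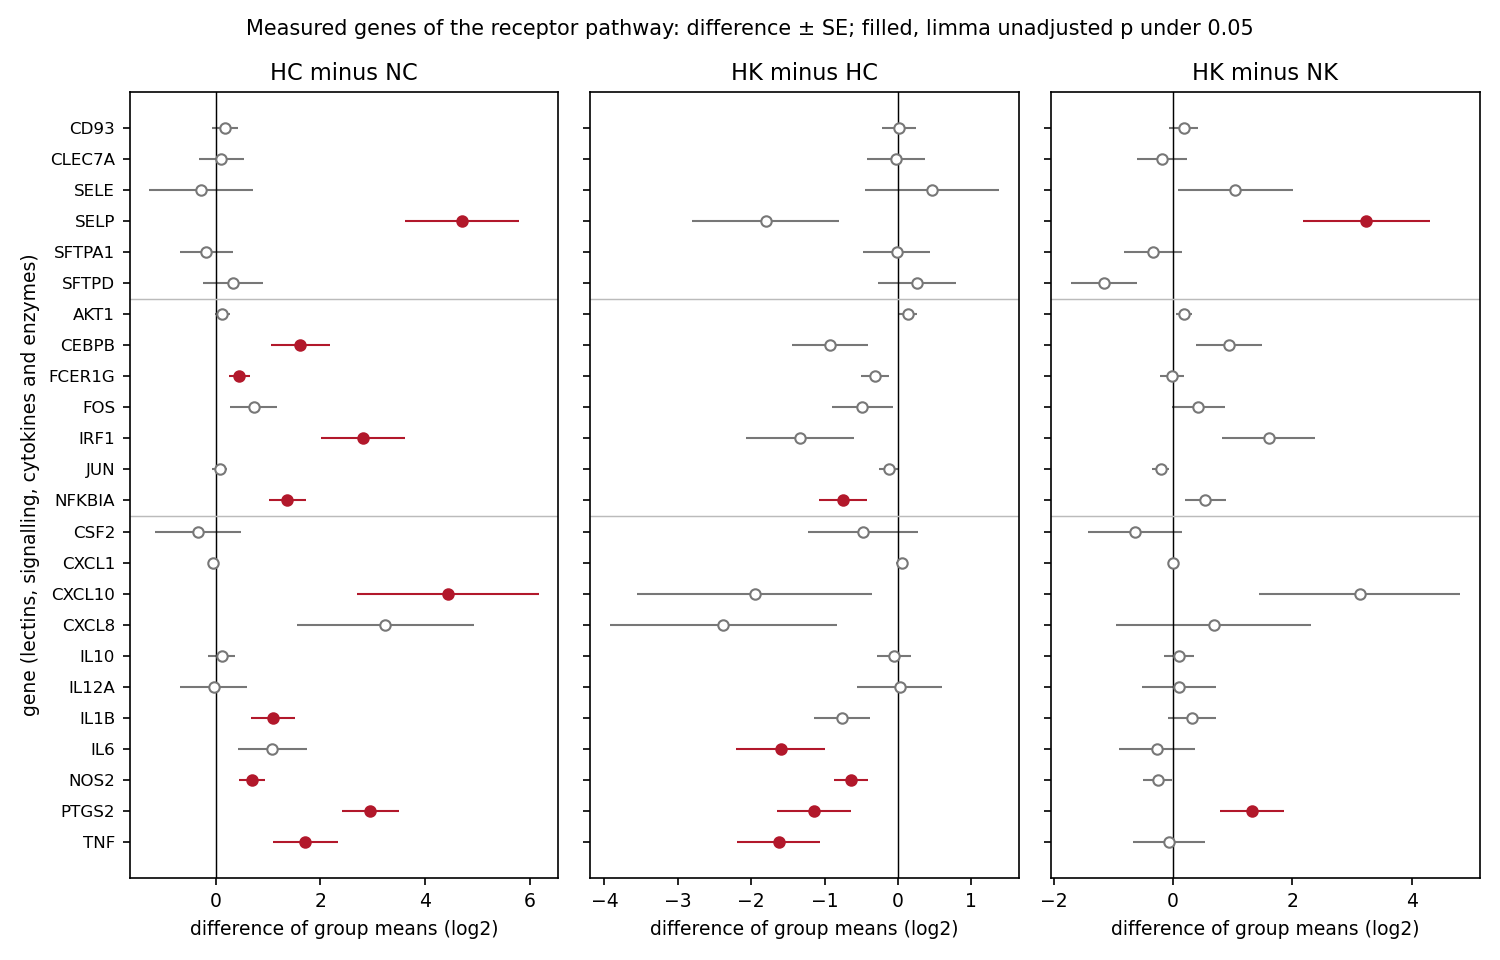
Difference of group means (log2, ± SE) for the 24 tested genes of the lectin, signalling and cytokine lists in 3 comparisons, filled where the unadjusted limma p was under 0.05. In HC minus NC SELP stood at 4.71 and PTGS2 at 2.96, CLEC7A lay near 0, and in HK minus HC the called genes lay below 0.

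Several markers of leukocytes were higher in HC than in NC, as the group means of both receptors were, but this did not extend to every comparison. Bulk RNA cannot tell more cells of a type from more RNA per cell. Of 9 measured genes of monocytes, macrophages and microglia 7 rose in HC over NC (CD14, CYBB, FCGR1A, ITGAM, LYZ, TLR2 and TLR4) and none fell, with a median change of 1.01, beside 8.03% of all probes past the test. The count was 2 without NC1 or without HC2, and a second ITGAM probe gave 0.26 and did not pass. CYBB was below the readable level on all 3 NC arrays. TLR2, a receptor of bacterial lipoproteins, had the smallest p, with a rise of 1.16 (SE 0.30, adjusted p = 0.341), and it was lower in HK than in HC by -0.83 (SE 0.27, adjusted p = 0.707), as were CD14 by -1.35 and FCGR1A by -0.89. A second CD14 probe gave -1.18 in HK minus HC and did not pass. The summed signal of the 9 genes, in multiples of the 75th percentile, ran from 2.80 to 3.29 in NC, 2.95 to 3.31 in NK, 2.61 to 8.13 in HC and 2.43 to 4.17 in HK, with HC2 the highest. All of the 5 arrays with the highest CLEC6A probe 398 signal (HK2, HC2, HC3, HC4 and HK4) were also the 5 highest in this sum, as were 4 of the 5 highest in CLEC4E probe 251. Such overlap was not particular to this list. The 5 highest arrays of the granulocyte sum given below shared 4 with CLEC6A and 3 with CLEC4E. Those of the lymphocyte sum shared 3 with each. CTSS was by far the brightest of the 9 genes, with a mean of 1.41 in NC and 1.69 in HC. The next, CD14, had means of -2.84 and -1.49, so that this sum of linear signal was mostly CTSS. CTSS differed by 0.28 in HC minus NC and did not pass, nor did FCGR2B at 0.79. The ranking by this sum of the 9 genes therefore rests largely on 1 gene.

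Of 5 measured granulocyte genes C5AR1, the receptor of the complement fragment C5a, rose in HC by 0.56 (SE 0.17, adjusted p = 0.382) and was lower in HK than in HC by -0.59 (SE 0.15, adjusted p = 0.707). The neutrophil cathelicidins BAC5 and CATHL3 rose in HK over NK by 2.72 (SE 1.20, adjusted p = 0.541) and 3.37 (SE 1.39, adjusted p = 0.501), whereas C5AR1 differed there by -0.16 (SE 0.16) and did not pass. These cathelicidin calls were each lost in 5 of 26 alternative settings, among them leaving out HK2, HK4, NK1 or NK3. Over all probes 8.69% passed in this comparison. ITGB2 and LTF passed in none of the 5 comparisons, and MMP9 and ITGAL were too dim for the test. The summed granulocyte signal ran from 1.61 to 2.56 in NC and 1.47 to 2.31 in NK. It was 1.97, 7.91, 8.97, 2.49 and 4.01 on HC1 to HC5 and 1.84, 16.2, 1.52 and 14.7 on HK1 to HK4, so that HK2 and HK4, the HK arrays with readable CLEC6A by both probes, were the highest of all. BAC5 and CATHL3 made up 87.7% of the sum on HK2 and 86.7% on HK4, against 14.7% to 33.6% in NC, and without them the sum was 1.98 and 1.96 on these arrays, against 1.27 to 1.70 in NC. C5AR1 read -0.81 on HK2 and -0.94 on HK4, against -1.06 to -0.97 in NC. HK3, readable for CLEC6A by probe 468 only, had one of the lowest sums. The part of these cells in the receptor signal was not tested.

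T-cell genes were also higher in HC than in NC for 2 of 4 measured members, CD3D by 1.58 (SE 0.56) and CD5 by 1.14 (SE 0.41), beside 8.03% of all probes. A second CD3D probe gave 0.73 and did not pass, nor did CD3D by its main probe without NC1 (1.36) or NC2 (1.33), while a second CD5 probe rose by 1.20. Their summed signal was 0.15 to 0.22 in NC, 0.19 to 0.26 in NK, 0.21 to 0.47 in HC and 0.12 to 0.46 in HK. Among 5 measured endothelial genes ICAM1, a ligand of leukocyte integrins, rose in HC by 2.42, KDR was lower by -0.67, though a second KDR probe gave -0.13 and did not pass, and FLT1, PECAM1 and SELE did not pass. The hemoglobin gene HBB, the measured erythrocyte marker, differed by 0.28 in HC minus NC, which did not pass, and its signal overlapped between all groups.

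The tissue label was checked on neuropeptide genes. Of 8 measured hypothalamic markers, among them NPY, OXT, POMC and SST, all were well above background on every array except AGRP on 1 NC array, and none passed in any of the 5 comparisons. Their summed signal was 24.5 to 45.7 in NC, 26.2 to 43.7 in NK, 27.1 to 57.8 in HC and 21.4 to 51.4 in HK. Pituitary hormone genes were present too: LHB was well above background on all arrays and was higher in HK than in HC by 0.19 and than in NK by 0.21 by its brightest probe, while a second LHB probe gave -0.34 and -0.39, neither past the test. CGA, FSHB and PRL did not pass and GH1 was too dim.

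**Figure D4:**
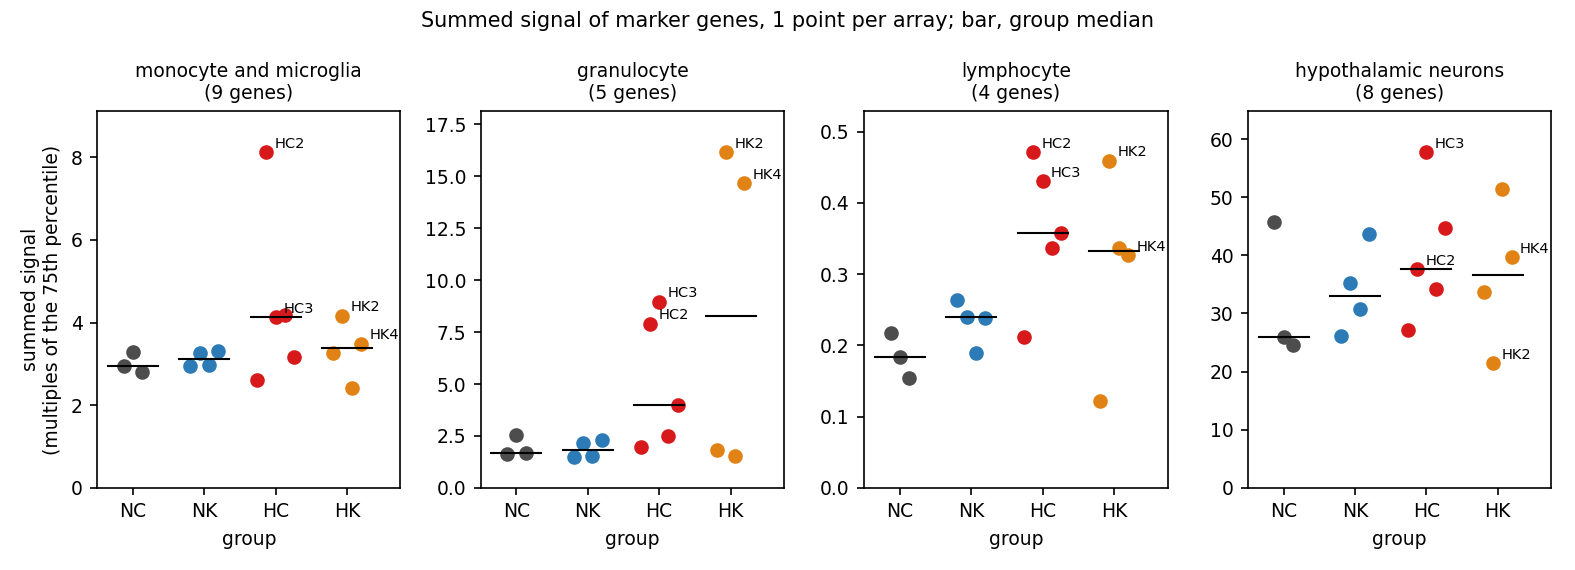
Summed linear signal of 4 marker lists, in multiples of the 75th percentile of the array, with 1 point per array, bars at the group medians and HC2, HC3, HK2 and HK4 named. The granulocyte sum was highest on HK2 at 16.2 and HK4 at 14.7 and the monocyte and microglia sum on HC2 at 8.13, while the hypothalamic sum overlapped between the groups.

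Both slides of the study held all 4 groups, and HC minus NC was positive on each for both receptors. It was 3.46 on slide 1 and 2.25 on slide 2 for CLEC4E probe 251, and 3.30 and 2.66 for CLEC6A probe 398. HK minus NK was 2.83 and 2.36 for CLEC6A probe 468, but 2.55 and 0.22 for probe 398, and for CLEC4E probe 251 it turned from 0.67 to -1.85, NK4 lying on slide 2. Slide 2 held a single NC array. The sign of HC minus NC on each slide is no support of its own, since this difference chose the pair and no NC array was readable.

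The named genes with the pattern most like CLEC4E probe 251 over the 16 arrays were CD86 (r = 0.87), FCER1G (0.83), C5AR1 (0.83), a serum amyloid A3.2 precursor probe (0.81) and TIMP1 (0.81), of 864 genes compared, among which the median r was 0.03. CD86 is a costimulatory molecule of antigen-presenting cells, serum amyloid A an acute-phase protein and TIMP1 an inhibitor of metalloproteinases. Spearman's rho for these 5 was 0.85, 0.73, 0.83, 0.83 and 0.63, and r of the deviations from group means was 0.85, 0.77, 0.81, 0.76 and 0.80. Without HC2 r fell to between 0.63 and 0.76, and 2 of the 5 genes were still among the 5 most alike. The genes most like CLEC6A probe 398 were CD5 (0.92), the MHC class I gene OVAR (0.85), the immunoproteasome subunit PSMB8 (0.85), the growth factor carrier IGFBP3 (0.82) and IRF1 (0.82), with rho of 0.81, 0.71, 0.81, 0.76 and 0.83. Their r without HC2 was between 0.76 and 0.89, and 3 of the 5 were still among the 5 most alike. Of this CLEC6A set 3 were left with quantile normalization and 2 with normexp or with the deposited values. Of the CLEC4E set 4 were left with each of these. No gene was in both sets of 5. CD5, like CLEC6A, was highest on HK2 at -2.14 and HC2 at -2.35, against -4.34 to -4.18 in NC. On HC1, the lowest HC array for CLEC6A, CD5 read -3.15, above HC3 at -3.43. These likenesses are a description over arrays that share groups, slides and depth of signal. CLEC4E probe 251 was well above background on only 4 of the 16 arrays and CLEC6A probe 398 on 6. Most receptor values behind r and rho were therefore unreadable, and 7 for CLEC4E and 2 for CLEC6A were surrogate values. The readable CLEC4E value of NK4, -3.62, was not shown by the other CLEC4E probe, which read -6.79.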

How the data were processed

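Hypothalamic RNA of 16 fetuses was labelled with Cy3 and hybridised to 1-colour Agilent sheep arrays of 15744 spots on 2 slides. The deposited scanner files hold spot intensities that the authors extracted with Feature Extraction (version 10.1.1.1 per the file headers). The deposited table of log2 values was made by the authors, and it was rebuilt within 5e-09 from normexp of the median signal and quantile normalization of the linear values, so its scale is settled; it served as an alternative. Here log2 of the processed signal minus the 75th percentile of each array was used, without control spots and with flagged spots (0.08%) missing. Spots of a probe were averaged. Differences were fitted with limma 3.58.1 in R 4.3.3 over the 4 groups together, two-sided, with the unadjusted threshold of 0.05 that the methods name and Benjamini-Hochberg adjustment over all 12249 tested probes. The number of arrays limits the precision. The fit was tested on simulated data.

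Of 1656 probes with a gene name, 750 carried a RefSeq accession and 726 of these matched the RefSeq table for ARS-UI_Ramb_v3.0, which was used for names only. Lists were written by hand, and spellings used by the array were added to them later. The members and the lists were chosen with earlier results of these data known. A gene with several tested probes is given by the one with the highest mean over all arrays. All measured lectin and signalling genes, the cytokine genes called in both HC against NC and HK against HC, and the called markers were named, as were the 5 genes most like each receptor. Alternatives covered other normalizations, the filter, slide and replicate number as blocks, 2-group fits, array weights and each array left out. Those that use the second probe, the mean of both probes or a single level for unreadable values were chosen after seeing the data.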

Additional observations from a re-analysis of the deposited data

Results flagged for a closer look

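The effect of ketamine differed between hypoxia and normoxia, by the limma interaction of HK minus HC with NK minus NC at an unadjusted p under 0.05, in 5 of the 59 measured list genes, beside 3.72% of all probes, and in none after adjustment over all probes (adjusted p = 0.997 for all 5). The interaction was -0.72 for C5AR1, -1.04 for TLR2, -0.94 for NOS2, -1.34 for FCGR1A and -1.77 for CD3D, on the log2 scale. C5AR1 passed in all 25 alternative settings, and NOS2, TLR2, CD3D and FCGR1A passed in 22, 22, 14 and 12 of 25. In the 15 combinations of CLEC probe and group examined, no array's gap to its nearest neighbour passed the 95% critical value of Dixon's test relative to the range of the group. The ratio was highest for NK4 with CLEC4E probe 251, at 0.759, a gap of 3.36 in a range of 4.44 over 4 arrays.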

How the results depend on the processing

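Over 27 alternatives each, HC minus NC stayed above 0 for CLEC4E probe 251 (0.56 to 3.30) and CLEC6A probe 398 (0.41 to 3.23). Since this difference chose the pair, its sign here describes the settings and is no support. It moved by more than the SD between replicates with normexp and quantile normalization, to 0.84 for CLEC4E and 0.66 for CLEC6A, and with the deposited log2 values, to 0.56 and 0.41, whose background correction narrows the low end of the scale. CLEC6A HK minus NK passed an unadjusted p of 0.05 with the mean of the 2 probes (1.99) and with the second probe (2.59), and ran from 0.38 to 2.09 when 1 array was left out, passing without HK3 and in no other such fit. CLEC4E HK minus NK turned to 0.16 with the second probe and ran from -1.08 to 0.40 when 1 array was left out. CLEC7A, called in no setting, changed sign in HC minus NC with quantile normalization (-0.0496) and in HK minus HC with quantile normalization (0.0723), normexp (0.0154), the deposited values (0.0146) and array weights (0.19). With 1 array left out it ran from -0.12 to 0.30, from -0.30 to 0.19 and, in HK minus NK, from -0.46 to 0.0386. The filter at 8 arrays left no value for CLEC4E or CLEC6A.

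With a replicate block HC minus NC was 3.04 for CLEC4E and 3.20 for CLEC6A, HK minus NK was -0.59 and 1.39, neither past the threshold, and calls over all probes moved from 983 to 1180 in HC against NC and from 848 to 1117 in HK against HC. Arrays with the same number deviated together with r above 0.1 in 15 of 21 pairs, and 9 of 16 arrays correlated best with their own number. This is a hint of pairing from the data, but in all 21 pairs the arrays of the same number also lay on the same slide. The part of the slide in this was not tested. The labels tie a number to no shared litter or day and to no other batch, and not every pair was above 0.1. A normoxia and a hypoxia array of the same number were not littermates, since whole pregnancies were assigned to 1 of these conditions. Pairs across the 2 conditions as well as within them were among those above 0.1. The numbers were therefore not taken as pairs. HC5 has no partner and drops out of that fit, in which SELP gained a call in HK minus HC, at -2.54. Of the 50 counts of called list genes, 1141 of 1290 alternative values were within 1.5 times the count given. SELP, IRF1, NFKBIA, CEBPB, PTGS2, TLR2, C5AR1, CD5 and ICAM1 in HC against NC and TNF, TLR2 and C5AR1 in HK against HC passed in every alternative run, while the other list calls in these 2 comparisons were lost in 1 to 16. In HK against NK the calls of SELP, PTGS2, BAC5, CATHL3 and LHB were lost in 1, 4, 5, 5 and 8 of 26 settings. The cause was not tested. Signal near background limits the reading of both receptors in normoxia.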
